A study of Mus musculus with 3 samples.

Results

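Myh7-high spots were studied in heart sections of mice after ischemia/reperfusion (I/R), with and without Shexiang Baoxin Pill (SBP). The spots came from Visium slides, whose barcoded spots each capture polyadenylated RNA from the tissue lying over them, and a single spot usually covers more than 1 cell and cell type. A spot was called Myh7-high when its Myh7 level was above the 95th percentile of the sham spots, which was 3.51 unique molecular identifiers (UMIs) of Myh7 per 10000 UMIs of the spot. The I/R and SBP sections held 1803 Myh7-high spots among 4042 spots with 200 or more detected genes, and the 3 sections together held 6276 spots with that many genes. Myh7 itself chose the spots, so its values describe them and carry no test.

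The series had 3 sections of C57BL/6 mouse hearts, with 1 section for each of the sham, I/R and SBP conditions. The sham mouse received vehicle by gavage for 7 days and then a needle passage without ligation. The I/R mouse received vehicle for 7 days, ligation of the left anterior descending coronary artery for 30 min and reperfusion for 24 h. The SBP mouse received a solution of the pill, which the labels call MUSKARDIA, in place of vehicle and then the same operation. With 1 section per condition, the condition, the animal and the plane of the section cannot be told apart, and there is no spread between animals. The 95% intervals below cover counting error only, of UMIs for levels and ratios and of spots for shares. Those of shares treat the spots of 1 section as independent draws, and spots are not replicates. They leave out the error from the few UMIs that class a spot. Kept spots numbered 1960 to 2234 per section, and median depths per spot of the sham, I/R and SBP sections were 10645, 14672 and 10652.5 UMIs. Barcodes mark positions of a common slide design, and 1205 of them occurred in both the I/R and the SBP section. Spot positions were not used here.

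Myh7 encodes the beta-myosin heavy chain, the slower of the heart's myosin motors. The adult mouse ventricle runs mainly on the alpha chain encoded by Myh6, and Myh7 returns in stressed cardiomyocytes as part of the fetal gene program, together with the natriuretic peptide genes Nppa and Nppb and skeletal actin Acta1. Ankrd1 encodes a repeat protein of the sarcomere and nucleus that is induced by stretch and injury and marks the border of infarcts. In bulk tissue or in spots, fewer cells of a type and less RNA per cell cannot be told apart.

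Myh7 (ENSMUSG00000053093) occupies bases 54970684 to 54994626 of chromosome 14 (GRCm38, minus strand), next to Myh6 at 54941921 to 54966927. The Myh7 gene shares 3666 bases at its 3′ end with the antisense RNA gene Mhrt, and both myosins are near-identical copies in parts, so reads could be split between them where the counting did not separate them. Mhrt stood at 8.29 CPM (UMIs scaled so that all genes of a class of spots sum to 1e+06) in the Myh7-high spots of I/R and at 8.26 in the other spots, and at 11.5 and 11.8 in SBP. The promoters of Myh7, Nppa and Ankrd1 are shown because the Myh7-high spots are set against the other 2 genes below. Each covers 250 bases before to 50 after a RefSeq start site of GRCm38.p6, and capitals mark the motif CATTCC or its reverse complement GGAATG, the core that TEAD factors bind.
Myh7 (chr14:54994577-54994876, minus strand): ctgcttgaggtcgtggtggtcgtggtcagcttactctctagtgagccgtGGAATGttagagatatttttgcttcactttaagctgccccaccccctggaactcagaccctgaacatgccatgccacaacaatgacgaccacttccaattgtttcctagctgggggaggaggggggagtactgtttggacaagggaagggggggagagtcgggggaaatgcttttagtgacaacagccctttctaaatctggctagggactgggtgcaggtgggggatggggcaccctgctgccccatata
Nppa (chr4:148000472-148000771, plus strand): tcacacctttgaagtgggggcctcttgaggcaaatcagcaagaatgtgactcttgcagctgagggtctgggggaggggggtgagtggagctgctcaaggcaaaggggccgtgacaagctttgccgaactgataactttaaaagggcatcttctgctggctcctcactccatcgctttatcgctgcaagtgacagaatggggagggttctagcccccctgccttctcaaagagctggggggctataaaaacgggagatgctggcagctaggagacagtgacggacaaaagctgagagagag
Ankrd1 (chr19:36119795-36120094, minus strand): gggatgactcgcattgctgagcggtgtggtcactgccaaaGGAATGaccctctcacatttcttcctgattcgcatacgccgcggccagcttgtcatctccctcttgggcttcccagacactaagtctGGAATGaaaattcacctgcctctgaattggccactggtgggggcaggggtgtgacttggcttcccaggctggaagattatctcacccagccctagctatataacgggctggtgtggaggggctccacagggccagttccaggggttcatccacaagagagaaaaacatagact
The motif occurred 1 time in the printed Myh7 window, 201 bases before the start site, and 0 times in the window of a second RefSeq start of Myh7, and 2 times in the Ankrd1 window, while these letters were not in the Nppa window. It occurred in 14.7% of all 32851 promoter windows, so that a match is common and describes the letters only. Of the other windows searched, those of Myh6, Nppb and Stard10 held 1 match each, 206, 105 and 88 bases before the start site. The Npr3 window held 0. Vwf, Prg4, Mfap5, Ccdc80 and Gm31659 had no window.

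Myh7-high spots made up 112 of 2234 spots in sham, 5.01% by construction, 587 of 2082 in I/R and 1216 of 1960 in SBP. The share was 28.2% in I/R (95% interval 26.3 to 30.2, exact binomial) and 62.0% in SBP (59.9 to 64.2). Over all spots of a section, Myh7 levels of sham, I/R and SBP were 100, 302 and 596 CPM. The median spots of sham, I/R and SBP held 0.573, 1.94 and 4.54 Myh7 UMIs per 10000, while 5% or more of the spots of each section held none. The median SBP spot was thus itself above the threshold. In the Myh7-high spots Myh7 levels were 604, 715 and 840 CPM, and in the other spots 72.4, 139 and 198 CPM, in the same order of sections. The other spots of I/R and SBP therefore lay above those of sham too, with log2 ratios of 0.94 (0.85 to 1.02) and 1.45 (1.36 to 1.55). Per 1000 UMIs of Myh6 there were 14.5 UMIs of Myh7 in the sham section, against 59.7 for I/R and 105 for SBP. Within the Myh7-high spots the sham, I/R and SBP ratios were 81.4, 145 and 142.

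**Figure D1:**
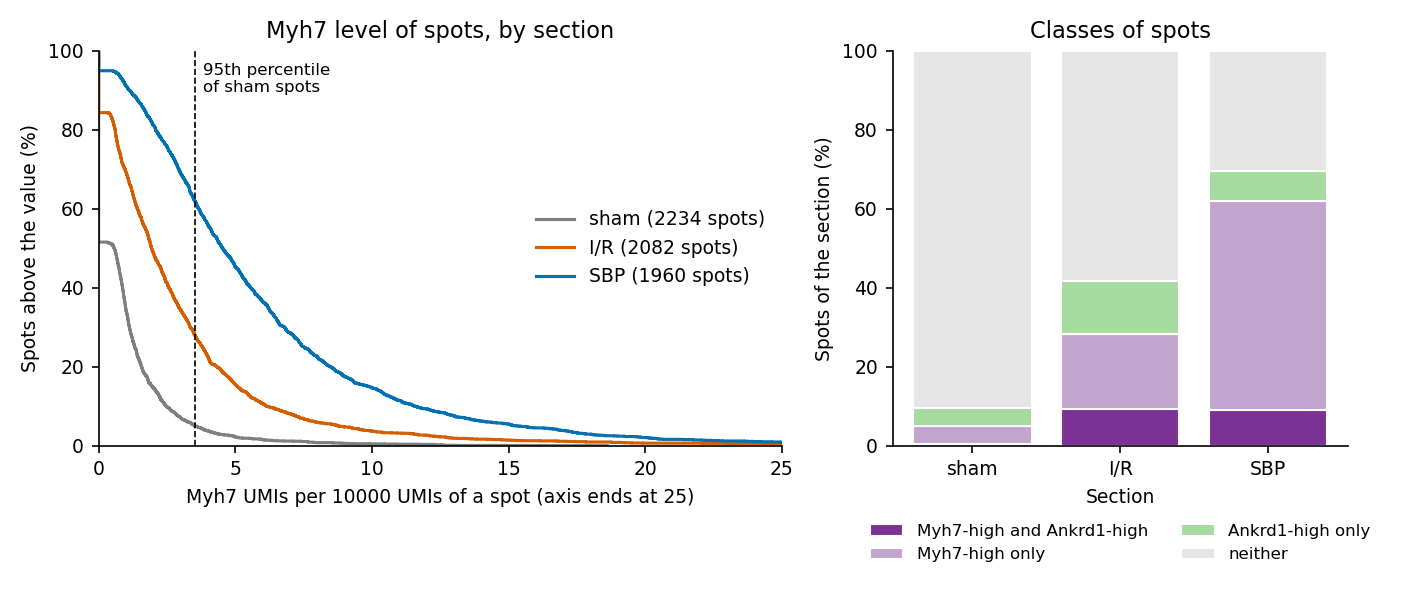
Left, share of spots (%) above each Myh7 level, in UMIs per 10000 UMIs of a spot, for the sham, I/R and SBP sections, with the threshold as a dashed line; the axis ends at 25, and the highest spots reached 58.2 in I/R and 67.7 in SBP. Right, share of spots (%) that were Myh7-high, Ankrd1-high, both or neither in each section. The SBP curve lies above the I/R curve and the I/R curve above sham along the plotted range.

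A spot passed on few molecules. The median Myh7-high spot held 8 Myh7 UMIs in I/R and 7 in SBP, against a median of 2 in the other spots of both sections. Just inside the threshold lay an I/R spot with 6 Myh7 UMIs among 17072, and just outside one with 7 among 19963. In SBP these were 6 among 17046 and 3 among 8556. Within 20% of the threshold lay 336 spots of I/R and 362 of SBP. When the UMIs of each spot were split at random in equal parts, and spots were chosen on one part and measured in the other, Myh7-high spots made up 22.5% of I/R and 51.2% of SBP. These shares lay outside the binomial intervals given above. Measured this way, the log2 ratio of Myh7 between chosen and other spots of sham, I/R and SBP was 2.300, 1.777 and 1.1996, against 3.06, 2.36 and 2.08 when the same UMIs chose and measured. The median depth was 14602 UMIs for Myh7-high and 14713 for other spots of I/R, and 10593 and 10811 for those of SBP. The mitochondrial share of UMIs was 43.9% and 44.5% for these classes of I/R, and 45.5% and 47.7% for those of SBP.

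Ankrd1-high spots, above the sham 95th percentile of 27.0 Ankrd1 UMIs per 10000, made up 23.0% of spots in I/R and 16.6% in SBP. They overlapped with the Myh7-high spots in 195 spots of I/R and 177 of SBP, against 8 in sham. In I/R the overlap was 33.2% of the Myh7-high spots (29.4 to 37.2) and 40.7% of the Ankrd1-high spots. In SBP it was 14.6% of the Myh7-high spots (12.6 to 16.7) and 54.3% of the Ankrd1-high spots. Ankrd1-high spots were thus more frequent among Myh7-high spots than among other spots in I/R, at 33.2% against 19% (17.0 to 21.1). In SBP the order was the other way, at 14.6% against 20.0% (17.2 to 23.1), a difference of -5.471 points that was -2.367 points with spots chosen on split counts and -0.8052 points at the 99th percentile of sham. Across single spots the rank correlations of both levels for sham, I/R and SBP were 0.185, 0.310 and 0.0800, over spots that share a library and whose levels share a denominator.

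In the I/R section, 39 of 8072 genes with 200 or more UMIs were at least 1.5-fold higher in the 587 Myh7-high spots than in the other 1495 (0.483%), and 148 were at least 1.5-fold lower (1.83%), together 2.32% of the genes. In sham, whose threshold made the class smaller, 384 of 6660 genes were higher (5.77%) and 198 lower (2.97%), together 8.74%. Nppa, the gene of atrial natriuretic peptide, stood at 2074 CPM in Myh7-high and 780 in other spots, a log2 ratio of 1.41 (1.38 to 1.44). Nmrk2, a muscle kinase of NAD synthesis, stood at 85.2 and 40.5 CPM, a ratio of 1.07 (0.93 to 1.22). Ankrd1 stood at 2383 and 1450 CPM, a ratio of 0.72 (0.69 to 0.74). Acta1 and Fhl1, which encodes a LIM-domain protein of the sarcomere, both had a ratio of 0.71. The matrix genes Cilp (1.77), Prg4 (1.08) and Mfap5 (0.82) and the lipid transfer gene Stard10 (0.94) were also among the 10 genes ranked highest. Of the 261 UMIs of Cilp, 39.8% lay in the 21 richest spots. In sham, Cilp had a ratio of 2.89 on 44 and 108 UMIs, and Acta1 had one of 1.04. Alb, the albumin gene, had the largest ratio, 3.08, but 317 of its 446 UMIs came from 1 spot, and without that spot the ratio was -0.64.

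The lower genes of I/R were led by Ly6c2, a surface protein of inflammatory monocytes, at 3.15 CPM in Myh7-high and 10.9 in other spots, a log2 ratio of -1.79 (-2.43 to -1.22). Ly6c2 has a near-identical neighbour copy, so its counts are uncertain. Spp1, the gene of osteopontin, stood at 232 and 544 CPM, a ratio of -1.229 (-1.298 to -1.160). Arg1, the arginase of wound macrophages, stood at 26.2 and 55.9 CPM, a ratio of -1.10 (-1.31 to -0.89). The leukocyte genes Ncf1 (-1.06) and Ncf4 (-1.15), subunits of the phagocyte oxidase, the adaptor gene Lat2 (-1.05), the chemokine receptor gene Ccr1 (-0.999), the lysosomal gene Laptm5 (-0.80), Cyp4f18 (-1.18) and the clotting factor gene F10 (-1.15) completed the 10 genes ranked lowest.

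In the SBP section, 55 of 6364 genes were at least 1.5-fold higher in the 1216 Myh7-high spots than in the other 744 (0.864%), and 36 were at least 1.5-fold lower (0.566%), together 1.43% of the genes. Npr3, the clearance receptor of natriuretic peptides, stood at 15.96 CPM in Myh7-high and 2.43 in other spots, a log2 ratio of 2.71 (2.05 to 3.45), from 214 and 20 UMIs. H19, an imprinted noncoding RNA, and Igf2, the growth factor gene beside it on chromosome 7, had ratios of 2.07 (1.69 to 2.46) and 1.95 (1.59 to 2.33). Of the 509 UMIs of H19, 46 lay in 1 spot and 40.9% in the 20 richest spots. Nppa stood at 1787 and 717 CPM, a ratio of 1.32 (1.28 to 1.36). The secreted-protein gene Cytl1 (1.70), the von Willebrand factor gene Vwf (1.34), the endothelial gene Plvap (1.21), the unannotated gene Gm31659 (1.12) and the cyclooxygenase gene Ptgs1 (1.24) followed.

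Ankrd1 was not among the higher genes of SBP. It stood at 1328 CPM in Myh7-high and 1431 in other spots, a log2 ratio of -0.11 (-0.14 to -0.07). Fhl1 had a ratio of -0.24 (-0.32 to -0.16) and Nppb, the gene of brain natriuretic peptide, one of -0.35 (-0.44 to -0.26), against 0.66 (0.61 to 0.71) in I/R. Among the 10 genes ranked lowest in SBP, Arg1 had a ratio of -1.35 (-1.67 to -1.04), the neutrophil genes S100a8 and S100a9 had ratios of -1.16 (-1.34 to -0.99) and -1.134 (-1.304 to -0.965), and Spp1 stood at 104 and 218 CPM, a ratio of -1.06 (-1.16 to -0.96). The heme oxygenase gene Hmox1 (-0.999), the surface protein gene Cd24a (-1.02), the chemokine genes Cxcl5 (-0.85), Ccl6 (-0.69) and Ccl7 (-0.69) and the nonmuscle actinin gene Actn1 (-0.82) followed.

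Of the genes higher in Myh7-high spots, 8 were higher in both sections, 20.5% of the I/R list and 14.5% of the SBP list, where 26 of the 39 I/R genes and 50 of the 55 SBP genes had 200 or more UMIs in both sections and could be shared. They were Myh7, which chose the spots, and Nppa, Prg4, Stard10, Mfap5, Vwf, Gm31659 and Ccdc80. The uninjured section shared more, as 18 genes of the I/R list and 28 of the SBP list were also higher in its Myh7-high spots. Its list was longer, with 384 genes or 5.77% of all genes tested there, which favours a larger shared count. Sham ratios of Nppa, Prg4, Stard10, Mfap5, Vwf and Gm31659 were 2.61, 1.76, 1.32, 1.05, 1.03 and 1.79, so these genes were not particular to injury. Of the lower genes 16 were lower in both, 10.8% of the I/R list and 44.4% of the SBP list, where 58 of the 148 I/R genes and all 36 SBP genes could be shared. Among the 16 were Spp1, Arg1, S100a8, S100a9, the fibronectin gene Fn1 and the integrin gene Itgam. In sham, where 2.97% of all genes were lower, 8 genes of the I/R list and 7 of the SBP list were lower too. Tpcn1, named after its values were seen, was the 1 gene past 1.5-fold in opposite directions, at -0.59 in I/R and 0.72 in SBP. Over the 6346 genes tested in both sections without Myh7, Pearson's r of the log2 ratios was 0.239 and Spearman's rho was 0.15, as a description across genes that are not independent. Both sections used the same sham threshold and shared no spots. The widest gaps between the sections among the genes named by rank were those of Alb, Npr3, H19, Igf2 and Cytl1. The last 4 were named by their high rank in SBP, a choice that favours a wide gap. In other spots of SBP they held 20, 65, 72 and 45 UMIs, so they reached 200 UMIs only through Myh7-high spots. Npr3, H19, Igf2 and Cytl1 had ratios of 0.86, 0.22, 0.21 and 0.22 in I/R, where all but Igf2 had fewer than 200 UMIs. In SBP these were 2.71, 2.07, 1.95 and 1.70. In the top 5% of the section's own spots, described below, these I/R ratios were 0.85, 1.32, 1.12 and 0.85.

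**Figure D2:**
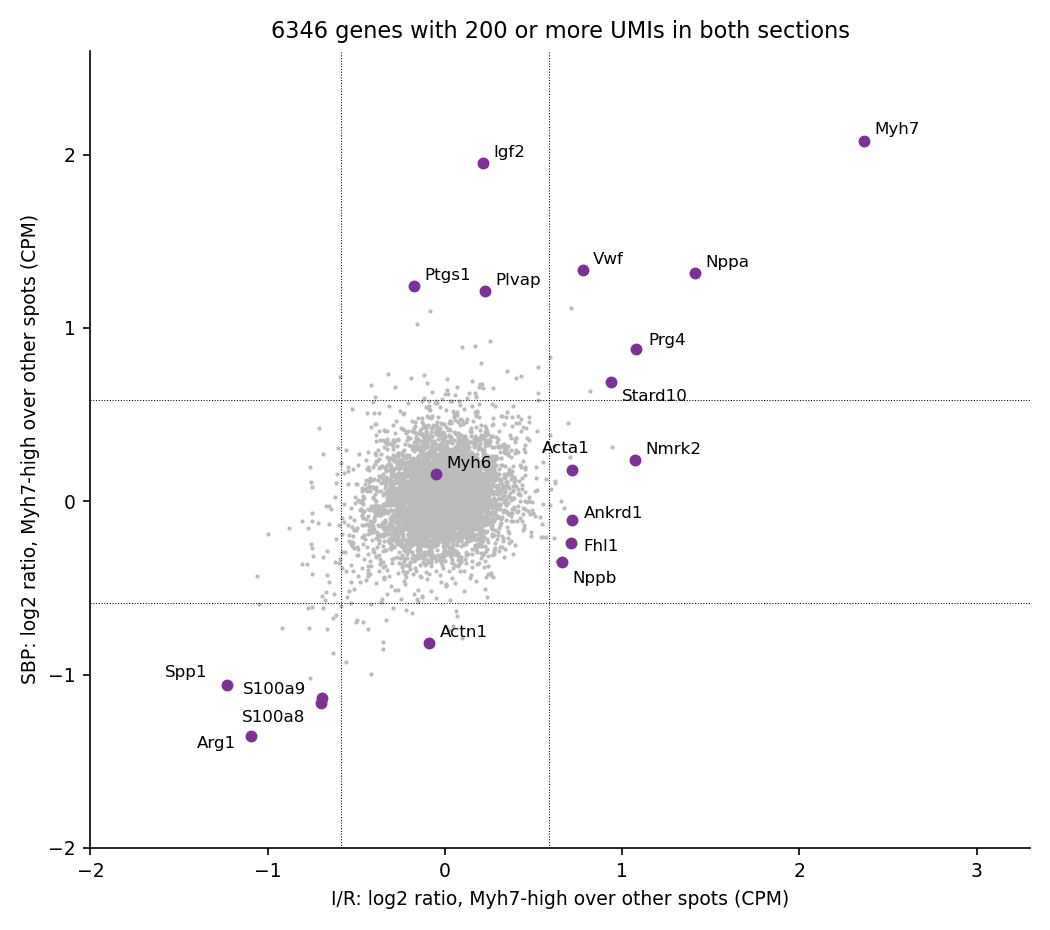
Log2 ratio of CPM in Myh7-high over other spots in I/R (x axis) and in SBP (y axis) for the 6346 genes with 200 or more UMIs in both sections, 1 dot a gene, with dotted lines at 1.5-fold. Nppa, Prg4, Stard10 and Vwf lie past 1.5-fold in both, while Ankrd1 (0.72 and -0.11), Fhl1 and Nppb lie to the right of 1.5-fold and below 0, and Igf2 (0.21 and 1.95) and Plvap lie high above 1.5-fold and inside it on the x axis.

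The Myh7-high class covered 28.2% of I/R but 62.0% of SBP, so a class of equal size was also taken, the top 5% of each section's own spots by Myh7. It held 105 spots above 8.77 Myh7 UMIs per 10000 in I/R and 98 spots above 15.3 in SBP, to be set beside the 112 spots of sham. In these spots of sham, I/R and SBP, Nppa had log2 ratios of 2.61, 2.30 and 2.47. Stard10 had 1.32, 2.18 and 2.35, and Vwf had 1.03, 1.18 and 1.38. The endocardial gene Cytl1 had 1.44, 0.85 (-0.02 to 1.62) and 2.07 (1.61 to 2.50). Npr3 had 1.93, 0.85 (-0.25 to 1.79) and 1.58, and Plvap had 0.40 (-0.38 to 1.09), 1.02 (0.60 to 1.42) and 1.31. H19 had 1.21, 1.32 (0.64 to 1.94) and 2.57, and Igf2 had 0.83, 1.12 (0.58 to 1.63) and 2.07. Ankrd1 was then higher in SBP as well, with ratios of 0.44 (sham), 0.65 (I/R, 0.61 to 0.70) and 0.33 (SBP, 0.26 to 0.40). Nppb had 0.94, 0.68 and 0.43 (0.26 to 0.60), while Fhl1 had 0.64, 0.78 and -0.00 (-0.18 to 0.18). Spp1 had -0.16, -2.10 and -2.63. The sign of Ankrd1 and of Nppb in SBP thus differed between the class of the sham threshold and this smaller class. At the 99th percentile of sham, Ankrd1 had 0.11, also above its value in the main class, and Nppb had 0.01, too small to give a direction. Among all genes tested, 325 (4.03%) of I/R and 464 (7.29%) of SBP were at least 1.5-fold higher in this smaller class, and 643 (7.97%) and 229 (3.6%) lower.

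Ankrd1 divided the Myh7-high spots. Spots high in Myh7 only numbered 392 in I/R and 1039 in SBP, spots high in Ankrd1 only 284 and 149, and spots high in neither 1211 and 595. Nppa was higher in both kinds of spots. In I/R it stood at 486 CPM in spots high in neither, 1261 in Myh7-only, 1819 in Ankrd1-only and 3312 in spots high in both. In SBP it stood at 426, 1448, 1768 and 3573 CPM, in the same order. In sham, Nppa stood at 365 CPM in spots high in neither, 2065 in Myh7-only and 320 in Ankrd1-only spots. There it was high with Myh7 alone and not with Ankrd1 alone. The 8 sham spots high in both are left out of this comparison.

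Nppb was high with Ankrd1 and little higher with Myh7 alone. In I/R it stood at 235 CPM in spots high in neither, 311 in Myh7-only and 1137 in Ankrd1-only spots. In SBP it stood at 102, 113 and 685 CPM. Fhl1 in I/R stood at 183, 261 and 646 CPM, and in SBP at 164, 172 and 608. Xirp2, an actin-binding repeat protein, had log2 ratios over spots high in neither of 0.05 in Myh7-only and 1.69 in Ankrd1-only spots of I/R, and of -0.01 and 1.70 in SBP. The small heat shock protein genes Hspb1 and Cryab had ratios of 1.59 and 1.26 in Ankrd1-only spots of I/R and of 0.17 and 0.29 in Myh7-only spots.

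Myh6, the adult myosin gene, was not lower where Myh7 alone was high. In I/R it stood at 5669 CPM in spots high in neither, 5783 in Myh7-only, 3099 in Ankrd1-only and 3634 in spots high in both. In SBP it stood at 5893, 6271, 3230 and 4149 CPM. Spp1 and S100a8 were lowest in Myh7-only spots. Spp1 stood at 537 CPM in spots high in neither, 196 in Myh7-only and 569 in Ankrd1-only spots of I/R, and at 203, 101 and 270 in SBP. S100a8 stood at 116, 57.5 and 139 CPM in I/R and at 52.2, 28.8 and 175 in SBP. Vwf stood at 23.6, 48.0 and 26.0 CPM in I/R and at 29.3, 70.3 and 19.1 in SBP, so it was higher in Myh7-only spots. The median depth was 13461.5 UMIs in Myh7-only and 17295.5 in Ankrd1-only spots of I/R, and 10341 and 11821 in SBP, and its part in these levels was not tested.

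**Figure D3:**
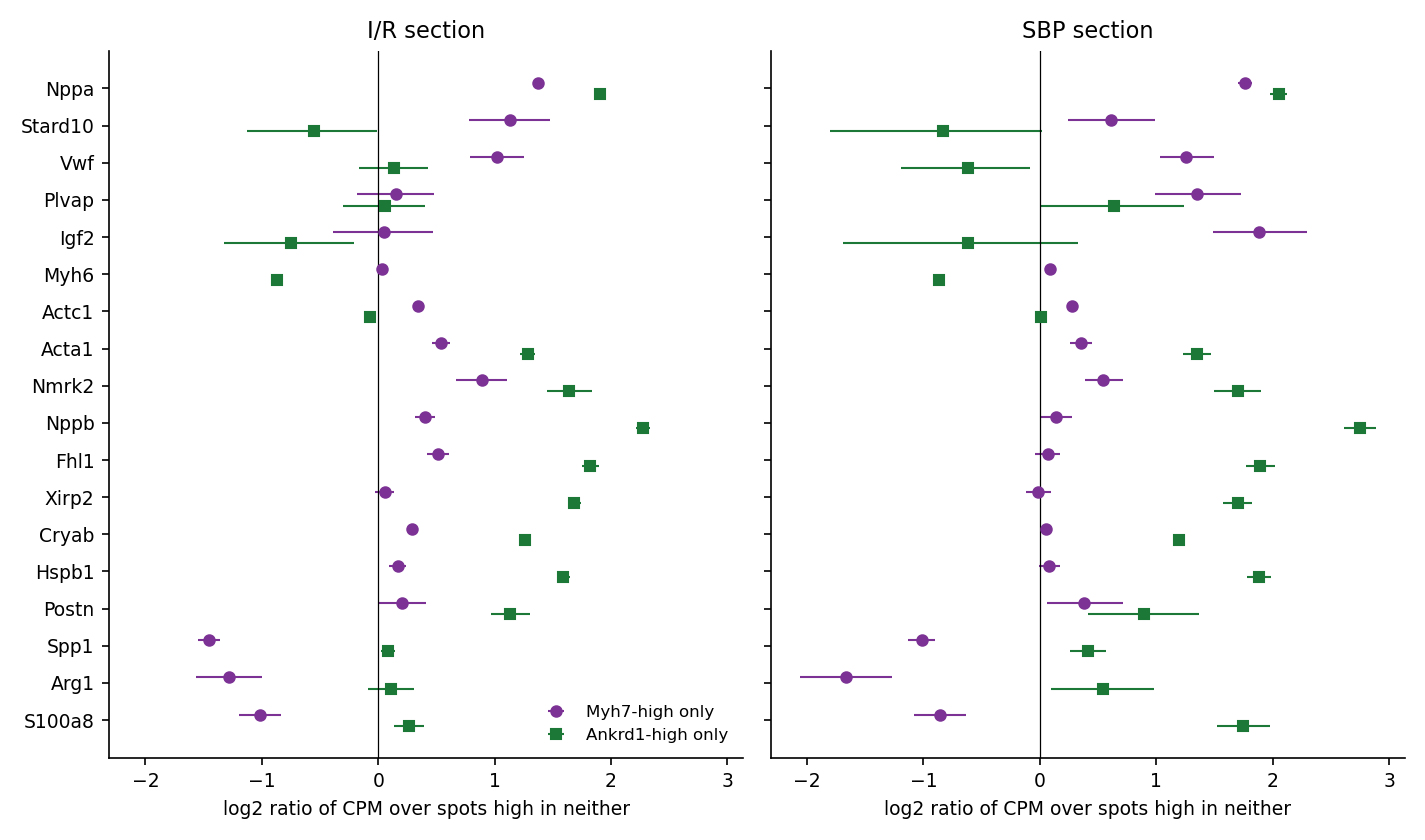
Log2 ratio of CPM over spots high in neither gene, for spots high in Myh7 only (circles) and in Ankrd1 only (squares) of the I/R (left) and SBP (right) sections, with 95% counting intervals as bars. Nppb, Fhl1, Xirp2, Cryab and Hspb1 lie far to the right in Ankrd1-only spots and near 0 to 0.51 in Myh7-only spots, whereas Myh6 lies at -0.87 in Ankrd1-only spots of both sections and near 0 in Myh7-only spots.

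Levels were also followed along Myh7, in 5 bins of spots cut at the 50th, 75th, 95th and 99th percentile of sham spots. Nppa climbed most in the last bin, from 593 CPM in the first to 1476 in the fourth and 3978 in the fifth of I/R, and from 600 to 1000 and 3004 in SBP. Ankrd1 went from 1167 CPM in the first bin to 2306 in the fourth and 2631 in the fifth in I/R. In SBP Ankrd1 stood between 1237 and 1468 CPM in all 5 bins. Spp1 was highest in the spots with the least Myh7, at 677 CPM in I/R and 715 in SBP, and stood at 134 and 81.3 in the fifth bin. In SBP most of this difference lay between the first bin and the second, at 189 CPM, well under the threshold. The first bin of SBP held 103 spots and the fifth 480.

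**Figure D4:**
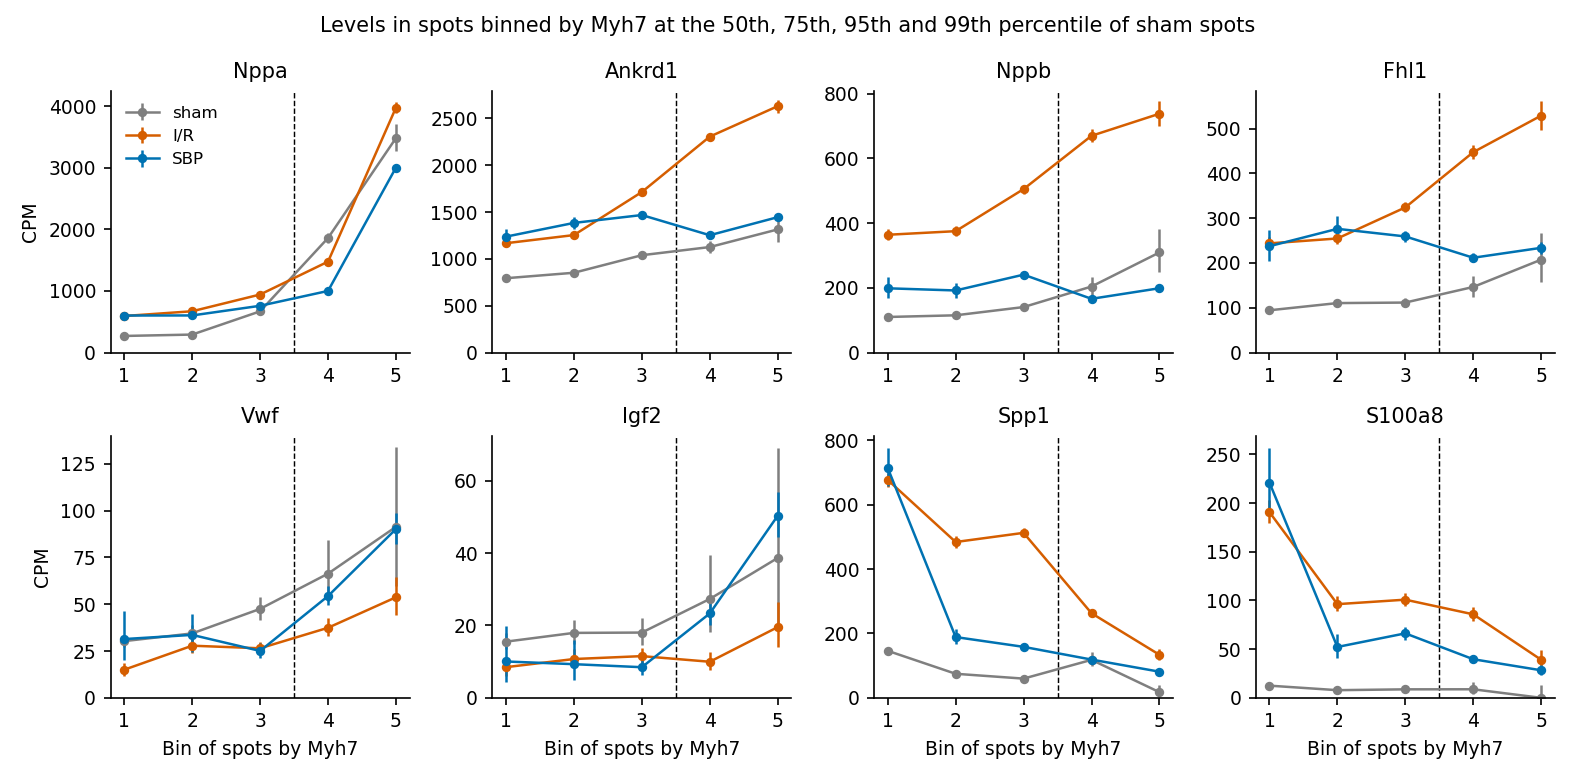
CPM of 8 genes in spots of the sham, I/R and SBP sections in 5 bins by Myh7 (bin 1 lowest), with 95% Poisson intervals as bars and the Myh7-high threshold as a dashed line. Ankrd1, Nppb and Fhl1 climb along Myh7 in I/R and show no such climb in SBP, Nppa climbs in all 3 sections, and Spp1 and S100a8 are highest in bin 1 of both injured sections.

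The lists below hold genes of the pathway and of the cell types that a spot can contain. A list was described by its members with 200 or more UMIs in a section and by its median log2 ratio, beside a median over all genes tested of -0.02 (I/R), 0.04 (SBP) and 0.11 (sham). Among myosin chains and their partners other than Myh7, none of the 9 measured members was past 1.5-fold in I/R or SBP. Myh6 stood at 4931 CPM in Myh7-high and 5103 in other spots of I/R, and at 5932 and 5317 in SBP. The ventricular light chain gene Myl2 had ratios of 0.05 and 0.15. Of the 11 measured thin filament genes, Acta1 alone passed 1.5-fold, in I/R, and cardiac actin Actc1 had ratios of 0.45 in I/R and 0.30 in SBP.

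Of the natriuretic peptide system, 2 of 6 measured members were at least 1.5-fold higher in each injured section, Nppa and Nppb in I/R (0.483% of all genes) and Nppa and Npr3 in SBP (0.864%). In sham 2 of 6 were higher too, Nppa (2.61) and Nppb (0.94), against 5.77% of all genes. The processing enzyme gene Corin had ratios of 0.14 (-0.06 to 0.33) in I/R and 0.24 (0.03 to 0.44) in SBP, and the receptor gene Npr1 of 0.07 and 0.12. Npr3 stood at 5.37 and 2.95 CPM in I/R on 46 and 64 UMIs, below the minimum for the list. Its ratio there was 0.86 (0.28 to 1.43), past 1.5-fold but not counted. In SBP it reached the minimum only through 214 UMIs in Myh7-high spots, with 20 in other spots. The 6 measured members of I/R and of SBP were thus not the same genes. Of the regulators of Myh7, none of 13 in I/R and none of 12 in SBP was past 1.5-fold. Gata4, a transcription factor of fetal cardiac genes, had ratios of 0.41 (0.19 to 0.63) and 0.29 (0.02 to 0.55), and Tead1 of 0.12 (-0.03 to 0.26) and 0.01 (-0.14 to 0.16).

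In the stretch and Z-disc list, 5 of 20 measured members were at least 1.5-fold higher in the Myh7-high spots of I/R, against 0.483% of all genes, and the median ratio was 0.42. They were Nmrk2, Ankrd1, Fhl1, Nrap (0.62) and Ankrd23 (0.60). In SBP none of 19 was past 1.5-fold and the median was 0.02. In sham 5 of 19 were higher, against 5.77% of all genes, and the median was 0.33. With the top 5% of its own spots the median of SBP was 0.31, and with Ankrd1-high spots left out the median of I/R was 0.24. The heat shock list had medians of 0.16 in I/R and -0.06 in SBP, with Hspb1 at 740 CPM in Myh7-high and 507 in other spots of I/R.

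The endocardial list showed the opposite order. All 5 measured members were at least 1.5-fold higher in SBP, against 0.864% of all genes, namely Npr3, Cytl1, Vwf, Plvap and the junction gene Cgnl1 (0.92), with a median of 1.34. In I/R 1 of 4 was (Vwf), against 0.483% of all genes, with a median of 0.33, and in sham 3 of 4, against 5.77% of all genes, with a median of 1.03. The minimum of UMIs made the measured members differ, so these counts do not compare the same genes. Npr3 and Cytl1 were measured in SBP but not in I/R, where their ratios were 0.86 and 0.22. In other spots of SBP they held 20 and 45 UMIs, so they reached the minimum only through Myh7-high spots. Npr3, Cytl1, Vwf and Plvap were also among the genes ranked highest in SBP. The list was chosen with earlier results of these data known. The count of 5 in SBP thus describes the list and is no independent support. Bmp6 was measured in I/R only. Plvap, Vwf and Cgnl1, measured in both, had ratios of 0.22, 0.78 and 0.25 in I/R, and 1.21, 1.34 and 0.92 in SBP. In endothelial nuclei, the paper lists Npr3, Bmp6 and Adgrg6 among genes upregulated by SBP over I/R and unchanged between I/R and sham. Its list also holds H19, Myh7 and a gene printed as Cgln1. That contrast is between conditions, whereas the ratios here compare spots within 1 section, so it does not bear on them directly. Of the endocardial list used here, Bmp6 and Adgrg6 were below the minimum of UMIs in SBP. The summed level of the 9 genes was 96.0 CPM in Myh7-high and 68.5 in other spots of I/R, and 162 and 64.1 in SBP, with Hapln1 at 0 in all sections. With the top 5% of own spots all 4 measured members were past 1.5-fold in I/R too, with a median of 1.08. Beside it, the pan-endothelial list had medians of -0.06 in I/R and 0.16 in SBP, with no member past 1.5-fold. The atrial genes Sln and Bmp10 had no UMI in the I/R and SBP sections and Myl7 stood at 0.350 CPM or less in every class, so that Nppa was the 1 measured gene of the atrial list.

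The injury and matrix list had 5 of 18 members at least 1.5-fold lower and 1 higher in I/R, and 4 of 17 lower in SBP, with medians of -0.16 and -0.31. Among all genes 1.83% were lower in I/R and 0.566% in SBP, which is the background of the neutrophil and macrophage counts too. Without the 1% of spots richest in each gene the SBP median was -0.05911. Spp1, Fn1, Tgfbi (-0.75), Cd44 (-0.74) and Lgals3 (-0.62) were the lower ones in I/R and the matrix gene Postn (0.62) the higher one. Those of SBP included Spp1, Ccn1 (-0.63) and Fn1 (-0.62). These ratios pool the UMIs of a class and do not describe its typical spot. On the per-spot scale used for Myh7, the median spot held more of the summed injury and matrix genes in the Myh7-high class. It held 21.8 against 13.5 in other spots of I/R, and 10.2 against 8.61 in SBP. The upper tail of spots went the other way in both sections. In the neutrophil list 3 of 4 measured members were at least 1.5-fold lower in I/R and 2 of 3 in SBP, and the summed level of its 6 genes was 209 CPM in Myh7-high and 310 in other spots of I/R, and 139 and 228 in SBP. In sham 2 of 3 were lower, against 2.97% of all genes, with a median of -0.59. These were S100a8 and S100a9, on 9 and 8 UMIs in Myh7-high spots of sham. In the macrophage and monocyte list 3 of 10 were lower in I/R, Fcgr1 (-0.997), Ccr2 (-0.67) and Lyz2 (-0.60), and none of 9 in SBP, with summed levels of 1005 and 1381 CPM in I/R and 749 and 756 in SBP. The summed macrophage level was thus lower in Myh7-high spots of I/R and nearly equal in SBP. The median spot held 6.93 of these genes in Myh7-high and 6.66 in other spots of I/R, and 4.91 and 4.64 in SBP. For the neutrophil genes it held 1.02 and 1.11 in I/R, and 0.753 and 0.835 in SBP. Whether immune and injury genes were lower in the same single spots was not tested. The part of the immune genes in the differences was not tested either.

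Fibroblast markers had medians of 0.19 in I/R and 0.38 in SBP. Past 1.5-fold upward were 1 of 8 members in I/R and 2 of 7 in SBP, against 0.483% and 0.864% of all genes. In sham 2 of 7 were higher as well, against 5.77% of all genes, with a median of 0.40. The collagen gene Col3a1 led in I/R (0.59) and gelsolin, Gsn, in SBP (0.71). In the smaller class of each section's own top spots by Myh7, 6 of 8 were higher in I/R (median 0.83) and 4 of 7 in SBP (median 0.65). Among all genes 4.03% of I/R and 7.29% of SBP were higher in that class. Cardiomyocyte markers were present in every class, with summed levels of 31323 CPM in Myh7-high and 29836 in other spots of I/R, and 36611 and 32761 in SBP, and none of 9 was past 1.5-fold. Calcium handling, fatty acid use, glycolysis and the mitochondrial genome likewise had no member past 1.5-fold in either injured section, with medians between -0.08 and 0.11. In the conduction list 1 of 2 measured members was higher in SBP, Etv1 (0.88), against 0.864% of all genes. In I/R none of 2 was, against 0.483%. In the smaller class of own top spots, 2 of 2 were higher in I/R (median 0.75) and 1 of 2 in SBP (median 0.63). The order of the sections in this list thus differed between the classes of spots. The ATF4 stress, blood and smooth muscle lists had no member past 1.5-fold in I/R or SBP, with medians of -0.19, -0.22 and -0.10 in I/R and -0.02, 0.07 and 0.03 in SBP. No lymphocyte or epicardial marker reached 200 UMIs.

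**Figure D5:**
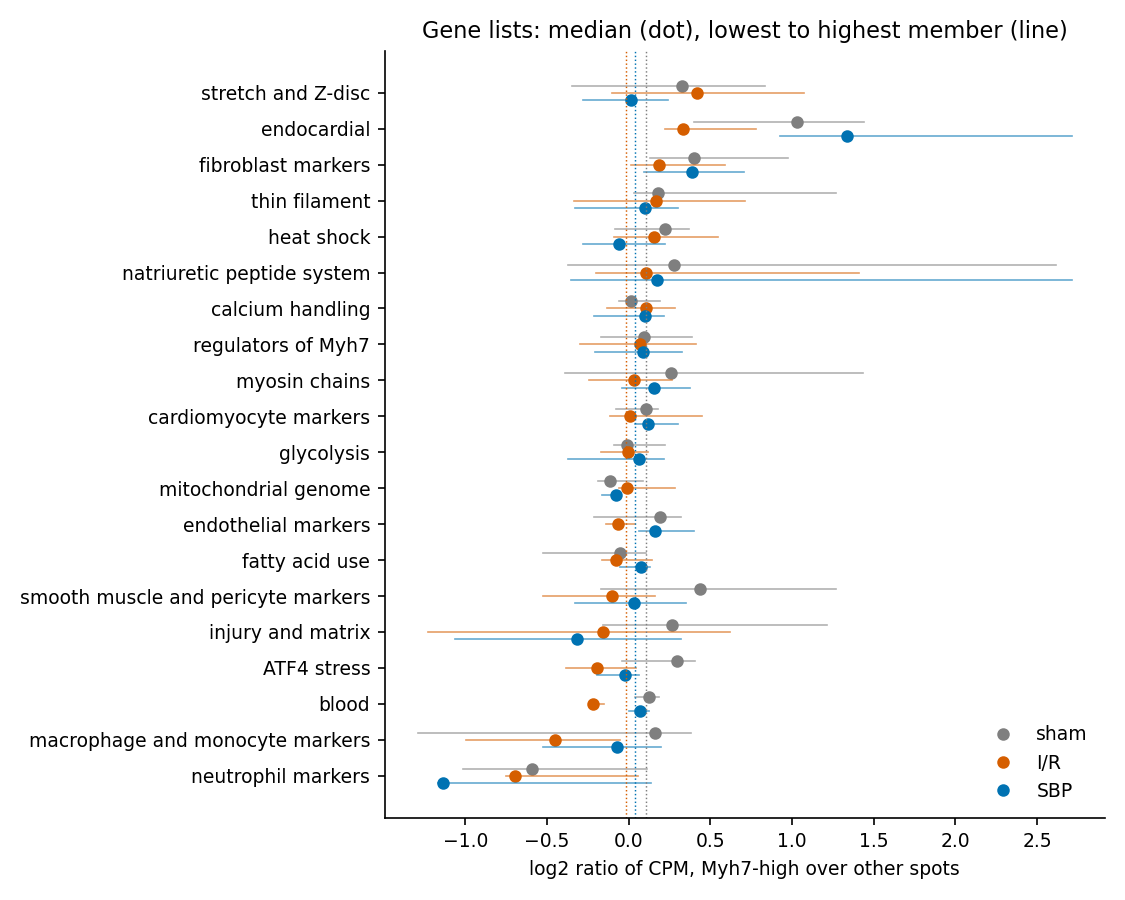
Median log2 ratio of CPM in Myh7-high over other spots for the lists with 3 or more measured members in sham, I/R and SBP (dots), with lines from the lowest to the highest member and dotted lines at the median of all genes tested. The stretch and Z-disc list lies at 0.42 in I/R and 0.02 in SBP, the endocardial list at 0.33 and 1.34, and the neutrophil list at -0.70 and -1.13. The measured endocardial members differed between the sections.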

How the data were processed

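Visium libraries of 3 mouse heart sections were used, with 1 section for each condition (sham, I/R, SBP). The authors deposited unnormalized counts of UMIs per gene and spot for 32285 mouse genes, restricted to spots over tissue. The labels name Space Ranger 1.3.0 and mm10, whereas the methods of the paper name another version and a human reference. GENCODE M21 (GRCm38) held 32235 of the identifiers, and of a repeated symbol the identifier with the most UMIs was kept. Only spots with 200 or more detected genes were kept, at a loss of 1 to 3 spots per section, and totals were 21631280 to 30238530 UMIs per section, so counting error was small for genes of 100 CPM and wide for genes near 200 UMIs. No doublet calling or clustering was run.

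Levels in the Myh7-high and the other spots of each section are sums of a gene's UMIs over the sum of all genes' UMIs in the same spots (CPM). Log2 ratios were taken of these with exact conditional binomial 95% intervals, shares with Clopper-Pearson and levels with Poisson intervals. PCR and capture error, the spread between spots and the spread between animals are outside the intervals of levels and ratios. Intervals of shares treat spots as independent draws and leave out UMI counting error within a spot and the spread between animals. There is no replicate, so no p-value is given, and a gene was counted as past the fold at 1.5-fold. The ratio and its interval were tried before use on simulated Poisson counts. These had no spread between spots and no choice of spots by a gene, so that trial covers counting error only. Named genes were Myh7 and Ankrd1, the 10 highest and 10 lowest ratios of I/R and of SBP ranked by the interval bound nearest 0, members of 24 gene lists, and the 5 widest gaps between both sections. The members and lists were chosen with earlier results of these data known. Alternatives were other percentiles, denominators, scalings, spot and gene filters, thinning, count splitting and omission of the richest spots. TMM factors came from edgeR 4.0.16 (R 4.3.3). All else ran in Python 3.11.15, using pandas 2.3.3, scipy 1.17.1, numpy 2.4.6 and, for plots, matplotlib 3.10.9. Single-nucleus data of the same study were not used here. Some of the genes that this rule names are not reported here.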

Additional observations from a re-analysis of the deposited data

Results flagged for a closer look

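Ankrd1, Fhl1 and Nppb moved in opposite directions in Myh7-high spots of the 2 injured sections. The log2 ratio of Ankrd1 was 0.716 (0.691 to 0.742) in I/R and -0.108 (-0.142 to -0.0742) in SBP. That of Fhl1 was 0.713 (0.656 to 0.771) and -0.239 (-0.320 to -0.158), and that of Nppb was 0.662 (0.614 to 0.709) and -0.352 (-0.440 to -0.264). The share of Ankrd1-high spots was 14.2 points higher (9.84 to 18.6) in Myh7-high than in other spots of I/R and differed by -5.47 points (-9.04 to -1.90) in SBP. These differences between the sections were not tested, since each condition had 1 section. In the top 5% of each section's own spots by Myh7, the ratio of Ankrd1 was 0.65 and 0.33, that of Nppb 0.68 and 0.43, and that of Fhl1 0.78 and -0.00. The difference in SBP was -2.367 points with spots chosen on split counts and -0.8052 points at the 99th percentile of sham.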

How the results depend on the processing

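No paired analysis was possible because there was 1 section per condition and no test was run. Without the 1 spot richest in Alb, an alternative chosen after seeing the data, the Alb ratio of I/R turned to -0.643. Other values that moved are given by setting. With both thresholds at the 90th percentile of sham, Myh7-high shares in sham, I/R and SBP were 10.03%, 41.31% and 76.02%, Ankrd1-high shares of these spots were 45.23% (I/R) and 24.83% (SBP), and the stretch median of I/R was 0.350. At the 99th percentile these shares were 1.03%, 6.532% and 24.49%, then 16.18% and 5.208%, and the differences to other spots were 8.109 and -0.8052 points. There 221 genes were higher and 570 lower in I/R and 107 higher in SBP, and medians were 0.803 (endocardial, I/R), -1.436 (neutrophil, I/R) and -0.1286 (injury, SBP). In spots thinned to 6500 UMIs, with 132, 202 and 213 shallower spots of sham, I/R and SBP left out, Myh7-high shares were 2.712%, 15.9% and 41.61%, the Ankrd1-high share in SBP 11.69%, lower genes of I/R 279, the stretch median of I/R 0.3058 and neutrophil medians -1.05 and -1.369. Without mitochondrial genes, the Myh7-high share of I/R was 23.87%, Ankrd1-high shares 27.36% (I/R) and 11.88% (SBP), lower genes 531 and 127, the stretch median of I/R 0.3155, injury medians -0.5348 and -0.6503, and neutrophil medians -1.655 and -1.654. With split counts, Myh7-high shares were 22.48% and 51.17%, with 80 genes higher and 351 lower in I/R, 87 and 66 in SBP, and a stretch median of 0.3276 in I/R. In the top 5% of own spots, 325 genes were higher and 643 lower in I/R and 464 and 229 in SBP, with medians of 1.078 (endocardial, I/R), 0.313 (stretch, SBP), -0.1199 (injury, SBP) and -1.733 and -1.455 (neutrophil, I/R and SBP). From 500 UMIs a gene, 18 and 52 genes of I/R and 23 and 11 of SBP were higher and lower, and with all genes 1425 and 1330, and 1360 and 1526. Among spots that were not Ankrd1-high, 19 genes were higher in I/R, with medians of 0.2359 (stretch), -0.3552 (injury) and -0.9793 (neutrophil), and -0.7117 (neutrophil) in SBP. With equal weight for each spot, 223 genes were lower in I/R and its stretch median was 0.2844. Without the 1% of spots richest in each gene, 90 genes were lower in I/R, 13 were in SBP, and SBP medians were 0.9343 (endocardial), -0.05911 (injury) and -0.796 (neutrophil). The cause of these shifts was not tested, except that gene filters change how many genes are counted. Of 989 alternatives for 63 single-gene ratios, 693 stayed within the counting interval of the reported value, 295 moved, and 1 ratio past 1.5-fold (Alb) changed sign. Counting ratios of any size, 13 had the other sign, among them Ankrd1 and Nppb in SBP at the 99th percentile, in the top 5% of own spots and among spots that were not Ankrd1-high (0.18 and 0.14 there). A single section per condition and a threshold of few Myh7 UMIs a spot limit every comparison.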
